A study of Homo sapiens with 8 samples.

Results

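The genes described here carry glucose into the cell, break it down to lactate or store it as glycogen. They are a list of symbols that applies no threshold on measured values, drawn up with earlier results of these data known, and number 38 of the 60332 genes in the table. They comprise 2 glucose transporters, 10 genes of upper glycolysis, 3 PFKFB enzymes that regulate phosphofructokinase, 8 genes of lower glycolysis, 4 genes of lactate formation and export, 4 pyruvate dehydrogenase kinases (PDK) and 7 glycogen genes. RNA was sequenced from SK-N-MC, an established Ewing sarcoma cell line, in 8 libraries of 2 per group. The eKD1 and eKD2 cells carried a lentiviral dCas9-KRAB repressor, a catalytically dead Cas9 fused to a silencing domain, as drug-selected polyclonal pools. Control cells grew in normoxia or spent 16 h at 1% oxygen. The study's text calls the cells of this control parental and does not state a vector for them. The eKD1 and eKD2 cells each had a different guide beside the GGAA-repeat enhancer of LOXHD1, a gene expressed in Ewing sarcoma, and were analysed here in hypoxia only. The unit is FPKM, read fragments divided by transcript length and library size, so levels of different genes are per length. RNA per cell was not measured, and a lower level cannot be told apart from less RNA per cell or fewer expressing cells.

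Glycolysis splits glucose to pyruvate in the cytosol and yields ATP without oxygen. Lactate dehydrogenase then turns pyruvate into lactate, while PDK enzymes phosphorylate pyruvate dehydrogenase and so hold pyruvate back from the mitochondria. When oxygen is low, the factor HIF-1, a pair of HIF1A and ARNT, is known to bind short DNA elements that contain ACGTG or GCGTG and to raise transcription of many of these genes. Most steps are served by several isozymes from separate genes, which differ in their kinetics and in the tissues that use them. Glycogen, the branched store of glucose, is built by glycogen synthase and branching enzyme and released by glycogen phosphorylase.

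The library check covered depth, replicates and the cell line. Read totals are not part of the table, so the absolute depth is unknown, and the relative depth read from low values ranged from 55.7% to 100% of that of control hypoxia replicate 1. The correlation across genes was 0.954 to 0.963 between duplicates and 0.920 to 0.956 between groups, where genes are not independent replicates. All 7 Ewing sarcoma markers checked reached 1 FPKM, with a summed level of 1146 to 1427 FPKM. Neither endothelial marker in the table, VWF or CDH5, did. Of the other lists, 2 of 5 leukocyte markers (summed level 5.69 to 25.3 FPKM), 5 of 5 fibroblast markers (295 to 390 FPKM), 4 of 5 epithelial markers (85.4 to 152 FPKM, mostly KRT18) and 1 of 6 hepatocyte and muscle markers (0.146 to 2.42 FPKM) reached 1 FPKM, and their part in the results was not tested. LOXHD1 was 156 and 169 FPKM in control normoxia and 93.0 and 91.1 FPKM in control hypoxia. It was lower in the eKD cells, at 17.3 and 15.0 FPKM (eKD1) and at 11.7 and 11.8 FPKM (eKD2). The duplicates are named biological in the study's methods, and their separate cultures are not described, so p-values measure the spread between these libraries.

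A few promoter sequences are shown first because they belong to the genes on which the results turn. They are LDHA and LDHB, which moved unequally, ALDOA and ALDOC, PGK1, and PDK1 beside PDK2. RefSeq (GRCh38.p14) gave 300-base windows, 250 bases before and 50 bases after each start, for 35 of the 38 genes, 67 windows in all. Both strands were searched for ACGTG and for GCGTG. Capitals mark every match, where CACGT and CACGC are the same letters read on the other strand and CACGTG holds ACGTG on both strands. Each stretch runs 5′ to 3′ along the gene and ends before the start of the window it was taken from. Some genes have several annotated starts. The ALDOA, PDK1 and PDK2 stretches lie after another annotated start of the same gene.
LDHA, chr11:18394368-18394503, plus strand: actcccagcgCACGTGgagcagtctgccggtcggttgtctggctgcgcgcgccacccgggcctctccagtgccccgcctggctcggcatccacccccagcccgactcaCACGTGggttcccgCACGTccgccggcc
LDHB, chr12:21657843-21657952, minus strand: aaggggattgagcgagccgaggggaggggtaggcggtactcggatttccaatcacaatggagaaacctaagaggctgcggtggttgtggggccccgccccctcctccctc
ALDOA, chr16:30064372-30064431, plus strand: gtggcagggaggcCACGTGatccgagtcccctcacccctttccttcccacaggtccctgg
ALDOC, chr17:28576910-28577015, minus strand: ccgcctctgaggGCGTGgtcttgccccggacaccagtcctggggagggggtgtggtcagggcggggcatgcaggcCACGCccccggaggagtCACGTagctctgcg
PGK1, chrX:78104028-78104077, plus strand: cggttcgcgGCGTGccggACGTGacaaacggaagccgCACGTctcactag
PDK1, chr2:172556030-172556089, plus strand: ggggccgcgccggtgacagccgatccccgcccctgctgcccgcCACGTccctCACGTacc
PDK2, chr17:50095176-50095240, plus strand: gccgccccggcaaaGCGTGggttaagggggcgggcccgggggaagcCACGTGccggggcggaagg

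The searched letters are common in promoters. Of 35116 promoter windows in the whole table, 48.4% held ACGTG or GCGTG, 21.4% held ACGTG and 36.5% held GCGTG. Of the 67 windows of the glucose genes, 64.2% held either, 37.3% held ACGTG and 44.8% held GCGTG. Among the genes that rose in hypoxia (described next), 66.7% of 48 windows held either, against 57.9% of 19 windows of the others. Some genes have several windows, so these percentages do not count genes. By gene, 23 of the 25 risen genes with a window held either motif. Among all genes with a window it was 32 of 35, a similar fraction, so the gap between windows was not seen by gene. The PDK2 stretch holds both motifs, while the other PDK2 windows and the other PDK1 window hold no match. PDK2 was not called in hypoxia in the pairwise fit. A fit of all 8 libraries together called it higher (0.74, adjusted p = 0.0153 in limma), where 19.2% of all tested genes were. All matches are letters in a window and not binding sites. No match in the LDHB stretch says only that the letters are absent from it. The searched LDHB window does hold a GCGTG, after the start and outside the stretch shown.

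Hypoxia was compared with normoxia in control cells to ask which glucose genes answer 16 h of low oxygen. Of the 37 genes tested (PDK4 was below the filter of 1 FPKM in 2 libraries), 27 rose, none fell and 10 were not called. The threshold for a call was an adjusted p under 0.05 in limma. Over all 15372 genes tested, 16.2% were called higher and 16% lower. The median change of the 37 genes was 1.41 on the log2 scale, and that of all tested genes was 0.013. The genes that rose include both glucose transporters, LDHA and the glycogen enzymes GYS1 and PYGL, while the only gene of the glucose 6-phosphate isomerase step, GPI, was not called. When all 8 libraries were fitted together, 29 genes were called higher, where 19.2% of all tested genes were. They include GPI, PDK2 and PGM1, while PFKM was then not called. The plot of every gene in every library shows these levels side by side.

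**Figure D1:**
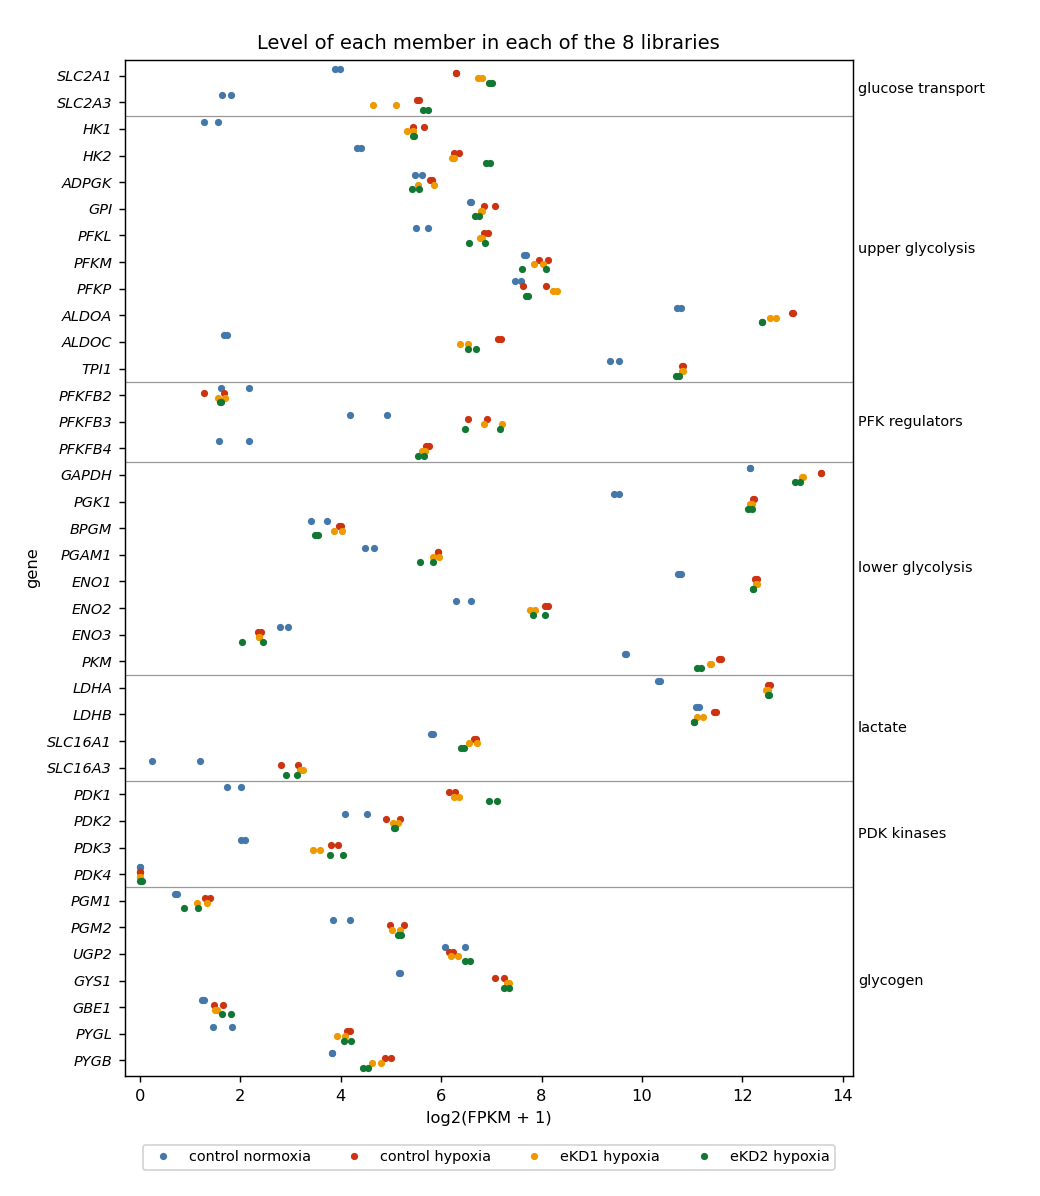
Level of each of the 38 genes as log2(FPKM + 1) on the x axis, with 1 point per library, colored by group and ordered by role. ALDOC, PDK1, HK1, PFKFB4 and SLC2A3 show the widest gaps between normoxia (blue) and the hypoxia groups, and PDK4 stays near 0 in all 8 libraries.

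Both glucose transporters of the set rose. SLC2A1, which encodes GLUT1, the widely expressed transporter, was 13.8 and 14.8 FPKM in control normoxia and 78.0 and 78.0 FPKM in control hypoxia. SLC2A3, which encodes the high-affinity transporter GLUT3, was 2.11 and 2.51 FPKM in normoxia and 44.7 and 46.1 FPKM in hypoxia. The log2 changes were 2.37 (SE 0.08, adjusted p = 0.00417 in limma) for SLC2A1 and 3.81 (SE 0.12, adjusted p = 0.004003) for SLC2A3. SLC2A3 has 3 processed copies in the table. Their summed level was 12.9% to 376% of that of SLC2A3, highest where the gene was low, so the normoxia level of SLC2A3 is uncertain.

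Hexokinase traps glucose as glucose 6-phosphate, and the mixture of its isozyme RNAs changed. HK1 was 1.95 and 1.41 FPKM in normoxia and 49.3 and 42.3 FPKM in hypoxia, a log2 change of 4.13 (SE 0.17, adjusted p = 0.00630 in limma). HK2, often raised in tumors, was 19.1 and 20.3 FPKM in normoxia and 75.6 and 80.5 FPKM in hypoxia, a change of 1.93 (SE 0.08, adjusted p = 0.00622). The HK1 gene is at chr10:71029740-71161640 (GRCh37, plus strand). ADPGK, which uses ADP for the same step, was not called, with a log2 change of 0.25 (SE 0.08, adjusted p = 0.085).

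In the rest of upper glycolysis the aldolases moved farthest. ALDOC, the aldolase known from brain, was 2.18 and 2.33 FPKM in normoxia and 145 and 140 FPKM in hypoxia, a log2 change of 5.46 (SE 0.09, adjusted p = 0.00140 in limma), the largest of the 37 genes tested. The ALDOC gene is at chr17:26900133-26903966 (GRCh37, minus strand). ALDOA, the abundant aldolase, was 1655 and 1747 FPKM in normoxia and 8098 and 8286 FPKM in hypoxia, a change of 2.27 (SE 0.04, adjusted p = 0.00140). Thus ALDOA supplied nearly all aldolase RNA in both states, while ALDOC changed by the larger ratio. TPI1, triosephosphate isomerase, rose by 1.36 (SE 0.07).

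Among the phosphofructokinase genes, PFKL and PFKM were called and PFKP was not. PFKL rose by 1.27 on the log2 scale (SE 0.10, adjusted p = 0.00843 in limma), from 44.5 and 52.5 FPKM to 114 and 122 FPKM. PFKM, the muscle-type subunit gene, which was the most abundant PFK gene in normoxia, changed by 0.37 (SE 0.08, adjusted p = 0.0433) and was called in 3 of 13 alternative settings. PFKP was not called (0.33, SE 0.18, adjusted p = 0.237), and its control hypoxia libraries lay apart at 196 and 272 FPKM. GPI, which converts glucose 6-phosphate to fructose 6-phosphate, was also not called (0.37, SE 0.09, adjusted p = 0.0522).

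The PFKFB enzymes set the level of fructose 2,6-bisphosphate, the strongest activator of phosphofructokinase. PFKFB4 was 3.52 and 1.99 FPKM in normoxia and 50.7 and 53.0 FPKM in hypoxia, a log2 change of 3.85 (SE 0.24, adjusted p = 0.00725 in limma). PFKFB3, whose product has high kinase activity, was 17.3 and 29.4 FPKM in normoxia and 91.3 and 119 FPKM in hypoxia, a change of 2.16 (SE 0.30, adjusted p = 0.0176). PFKFB2 was low throughout and not called. It was 2.08 and 3.52 FPKM in normoxia and 1.41 and 2.19 FPKM in hypoxia, so the groups overlap.

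In lower glycolysis, 6 of 8 genes rose. PGK1, which makes the first ATP of the pathway, changed most, from 697 and 743 FPKM to 4791 and 4749 FPKM, a log2 change of 2.73 (SE 0.04, adjusted p = 0.00140 in limma). PKM, pyruvate kinase, was 819 and 805 FPKM in normoxia and 3030 and 2974 FPKM in hypoxia, a change of 1.88 (SE 0.03). GAPDH, the glyceraldehyde 3-phosphate dehydrogenase often used as a reference gene, was 4560 and 4543 FPKM in normoxia and 12097 and 12130 FPKM in hypoxia, a change of 1.41 (SE 0.03, adjusted p = 0.00140). ENO1 and ENO2, enolases that are broadly expressed and neuronal, rose by 1.53 (SE 0.04) and 1.65 (SE 0.12). PGAM1, phosphoglycerate mutase, rose by 1.37 (SE 0.09) from 24.2 and 21.3 FPKM, the lowest normoxia level of these 6 genes. The 13 processed copies of PGAM1 reached up to 5.66% of it. ENO3, the muscle enolase, was 5.96 and 6.72 FPKM in normoxia and 4.12 and 4.34 FPKM in hypoxia, and was not called (-0.49, SE 0.14, adjusted p = 0.070). BPGM, which makes 2,3-bisphosphoglycerate, was not called either (0.41, SE 0.15, adjusted p = 0.119).

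The lactate genes rose unequally. LDHA, whose subunit favors lactate formation, was 1285 and 1316 FPKM in normoxia and 6018 and 5842 FPKM in hypoxia, a log2 change of 2.19 (SE 0.03, adjusted p = 0.00140 in limma). The LDHA gene is at chr11:18416107-18429972 (GRCh37, plus strand). LDHB, the heart-type subunit, was 2166 and 2255 FPKM in normoxia and 2860 and 2783 FPKM in hypoxia, a change of 0.35 (SE 0.04, adjusted p = 0.0114). LDHB was thus the more abundant subunit RNA in both normoxia libraries and LDHA in both hypoxia libraries. For lactate export, SLC16A1 (MCT1) rose by 0.86 (SE 0.06, adjusted p = 0.00801). SLC16A3, which encodes the exporter MCT4, rose by 2.26 (SE 0.39, adjusted p = 0.0254) from 0.18 and 1.28 FPKM to 6.01 and 7.83 FPKM, and only 1 of its normoxia libraries reached 1 FPKM.

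Of the pyruvate dehydrogenase kinases, PDK1 and PDK3 rose. PDK1 was 3.01 and 2.33 FPKM in normoxia and 70.7 and 76.1 FPKM in hypoxia, a log2 change of 4.35 (SE 0.14, adjusted p = 0.00410 in limma). PDK3 changed by 1.82 (SE 0.13, adjusted p = 0.00809), from 3.25 and 3.07 FPKM to 14.4 and 13.01 FPKM. PDK2, the main form by RNA in normoxia, was 22.0 and 15.9 FPKM there and 35.1 and 28.9 FPKM in hypoxia. It was not called (0.74, SE 0.20, adjusted p = 0.0642 in limma). PDK4 was listed at 0 in 7 of the 8 libraries. The PDK1 gene is at chr2:173420101-173473397 (GRCh37, plus strand).

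Among the glycogen genes, 4 of 7 rose, on both the building and the releasing side. GYS1, the muscle-type glycogen synthase of most tissues, was 35.1 and 34.6 FPKM in normoxia and 133 and 152 FPKM in hypoxia, a log2 change of 2.001 (SE 0.09, adjusted p = 0.00653 in limma). PYGL, the liver-type phosphorylase, was 1.74 and 2.54 FPKM in normoxia and 16.4 and 17.1 FPKM in hypoxia, a change of 2.51 (SE 0.18, adjusted p = 0.00809). PYGB, the brain-type phosphorylase, rose by 1.11 (SE 0.09) and PGM2 by 1.11 (SE 0.17). UGP2, which makes the UDP-glucose used by glycogen synthase, was not called, at 66.1 and 88.3 FPKM in normoxia and 74.8 and 70.2 FPKM in hypoxia. GBE1, the branching enzyme, was low and not called (0.31, SE 0.16, adjusted p = 0.222). PGM1 was not called (0.63, SE 0.16, adjusted p = 0.0556), and it passed the filter only through hypoxic libraries.

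**Figure D2:**
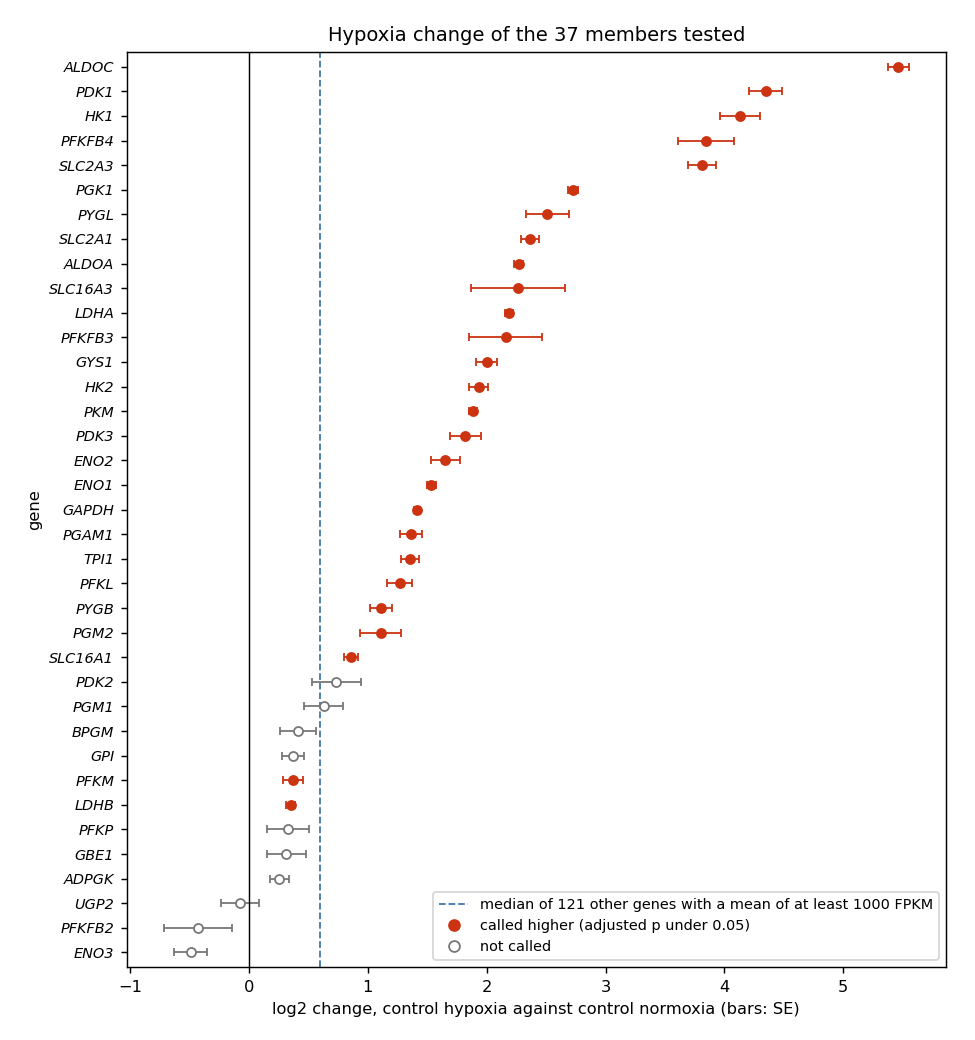
Log2 change in hypoxia of the 37 tested genes (x axis; points are limma estimates from 2 against 2 libraries and bars are SE), in order of size. Filled red points mark the 27 called genes, open grey points the 10 not called, and the dashed line at 0.60 marks the median of 121 other abundant genes.

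A general shift of abundant genes accompanied these changes. The 121 other genes with a mean of at least 1000 FPKM had a median log2 change of 0.60 in hypoxia, with 111 of them above 0. That mean was taken over all 8 libraries, most of them hypoxic, so the choice favors genes that are higher in hypoxia. How much of the shift comes from this choice was not tested. When libraries were rescaled on these genes, an alternative chosen after seeing the data, 24 of the 27 genes remained called higher, with changes such as 4.96 for ALDOC, 1.60 for LDHA and 0.82 for GAPDH, where 5.27% of all tested genes were called higher. LDHB and PFKM turned to -0.24 (adjusted p = 0.00587 in limma) and -0.22 (adjusted p = 0.0872), so the direction of both genes depends on the scaling. The median of all tested genes was then -0.49 and, with equal FPKM totals, -0.19. Leaving out any of the 4 libraries left no gene called, since a single library then stood for its group, with the 27 directions kept.

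The genes took a larger part of the measured RNA in hypoxia. Their summed FPKM was 1.69% and 1.69% of the library total in control normoxia and 4.40% and 4.49% in control hypoxia. It was 3.95% and 4.19% in eKD1 and 3.89% and 3.97% in eKD2, so both eKD groups lay between the control groups without overlap. With 2 against 2 libraries, an exact permutation test cannot give a two-sided p below 0.333, so these shares are described without a test. The 6 most abundant genes made up 73.3% to 73.5% of the sum in normoxia and 85.0% to 85.1% in control hypoxia. By rank among all genes of the table, GAPDH moved from 5 to 2, ALDOA from 59 to 5, LDHA from 92 to 11, ENO1 from 58 to 19 and PGK1 from 160 to 22, in group means.

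**Figure D3:**
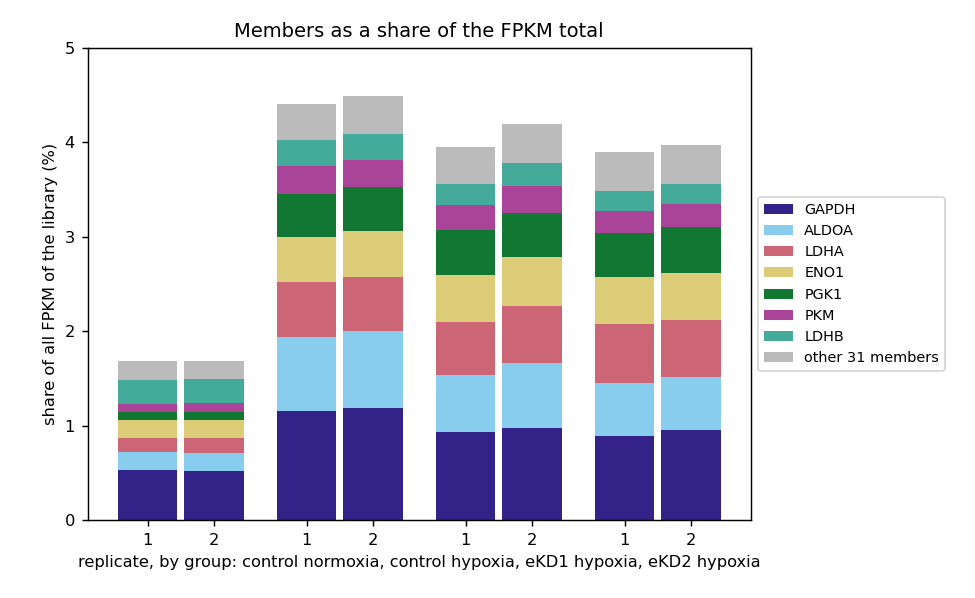
Summed FPKM of the 38 genes as a percentage of all FPKM in each library (y axis), stacked by gene, with 1 bar per library. The normoxia bars reach 1.69%, the control hypoxia bars 4.40% and 4.49%, and the eKD bars lie between 3.89% and 4.19%.

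The levels along the pathway were uneven before and after hypoxia. Summed over isozymes, mean FPKM in normoxia was 21.4 for hexokinase (HK1 and HK2), 435 for phosphofructokinase, 1703 for aldolase, 1806 for enolase and 3511 for lactate dehydrogenase. In control hypoxia the same sums were 124, 615, 8334, 5231 and 8752 FPKM. Among these 5 sums, hexokinase was lowest, then phosphofructokinase, and lactate dehydrogenase was highest in both states. Outside them, GAPDH (4551 and 12113 FPKM in the group means) was above the lactate dehydrogenase sum in both states, and PGAM1 (60.1 FPKM) was below hexokinase in control hypoxia. Aldolase and enolase lay close together in normoxia, and aldolase was above enolase in both control hypoxia libraries. The mean levels of hexokinase and phosphofructokinase differed by 5.79-fold and 1.41-fold between the states. PDK genes together were 24.8 FPKM in normoxia and 119 FPKM in control hypoxia.

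Isozyme shares compare genes within a library and do not depend on scaling between libraries. LDHA was 37.2% and 36.8% of LDHA plus LDHB in normoxia and 67.8% and 67.7% in control hypoxia. PDK1 was 10.67% and 10.95% of the 4 PDK genes in normoxia and 58.8% and 64.5% in control hypoxia, while PDK2 was 77.8% and 74.7% and then 29.2% and 24.5%. HK1 was 9.25% and 6.51% of HK1 plus HK2, and then 39.5% and 34.4%. In these 3 families the shares of the groups lay far apart relative to the spread of duplicates. At the RNA level, a minor isozyme of normoxia was the major one in hypoxia for LDH and PDK, whereas HK2 stayed the major hexokinase RNA.

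The mixture also differed in further families. SLC2A3 was 13.2% and 14.5% of the sum with SLC2A1 in normoxia and 36.4% and 37.2% in control hypoxia. PYGL was 11.6% and 16.2% of the phosphorylase sum with PYGB, and then 36.4% and 35.5%. PFKFB4 was 15.4% and 5.69% of the PFKFB sum, and then 35.4% and 30.4%. SLC2A3, PYGL and PFKFB4 were minor forms by RNA in normoxia and remained so. ENO1 by contrast held 94.4% to 95.3% of enolase in normoxia and 94.6% to 94.8% in control hypoxia, so the groups overlap.

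**Figure D4:**
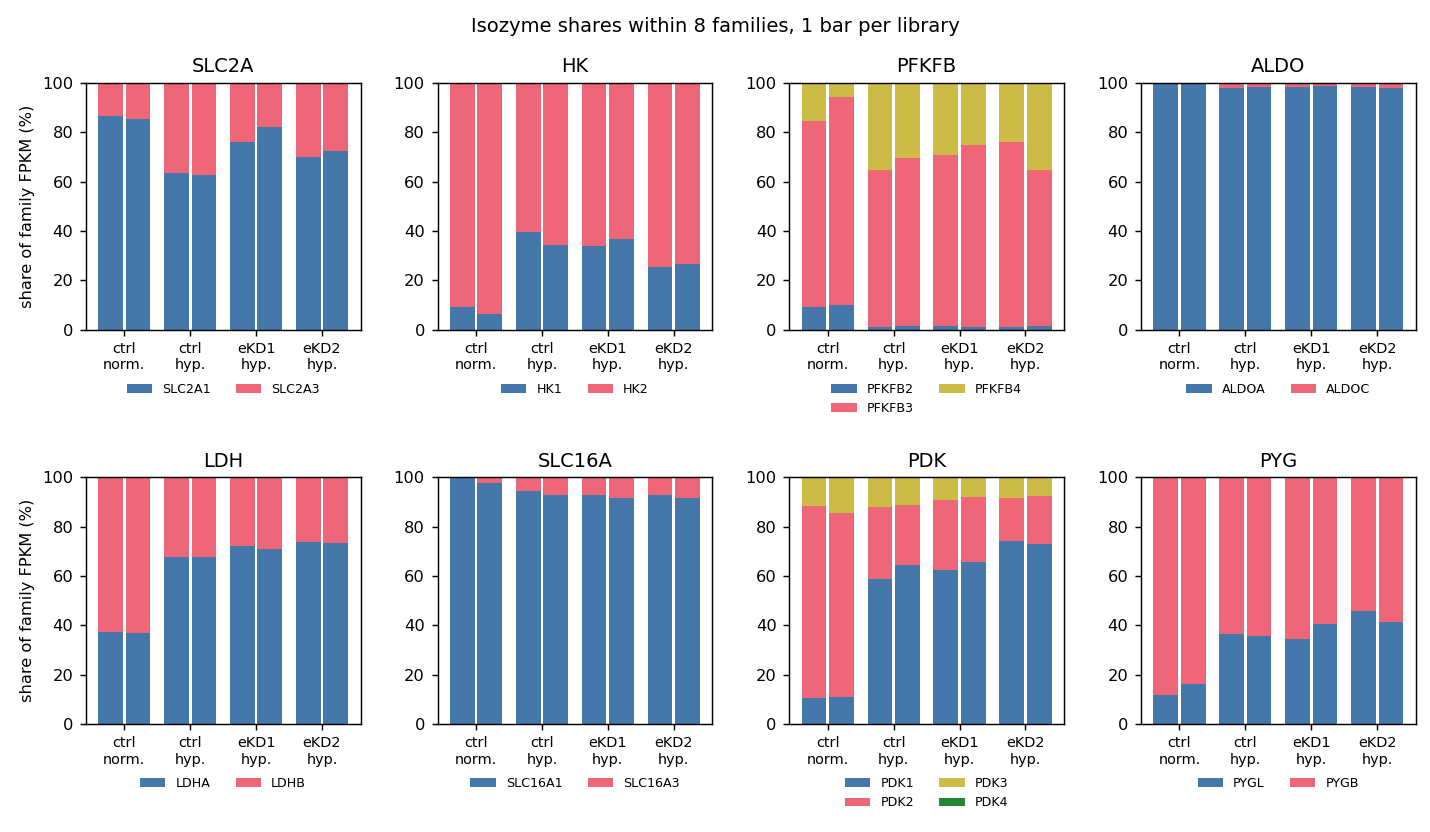
Share of each isozyme in the summed FPKM of its family (y axis, %), with 1 stacked bar per library in 8 families. LDHA and PDK1 go from the smaller part in the normoxia bars to the larger part in all 6 hypoxia bars, and SLC2A3 is smaller in eKD1 than in control hypoxia.

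The eKD groups were compared with control in hypoxia to ask whether silencing the LOXHD1 enhancer alters these genes. Both comparisons share the control hypoxia libraries. In eKD1, 0 of 37 genes were called in limma in either direction, where 0.013% of all tested genes were called higher and 0.052% lower. Without adjustment, 9 of the 37 had a p under 0.05, near the 21.7% of all tested genes. In eKD2, 3 genes rose and 5 fell, where 5.8% of all tested genes were called higher and 3.81% lower. The median change of the 37 genes was -0.05 in eKD1 and -0.12 in eKD2 on the log2 scale, beside 0.002 and 0.052 for all tested genes. Several strongly induced genes were close to their control hypoxia level, PGK1 at 96.6% and 95.1% of it, LDHA at 96.8% and 98.98% and ENO1 at 101% and 96.3% in eKD1 and eKD2.

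The genes that rose in eKD2 were SLC2A1 (glucose uptake), HK2 (hexokinase) and PDK1 (pyruvate dehydrogenase kinase). Other genes of these steps were not called in eKD2. Their log2 changes were 0.15 for SLC2A3, -0.10 for HK1, -0.31 for ADPGK, 0.03 for PDK2 and 0.04 for PDK3. SLC2A1 was 78.0 and 78.0 FPKM in control hypoxia, 106 and 112 FPKM with eKD1 and 122 and 128 FPKM with eKD2. Its log2 change was 0.68 in eKD2 (SE 0.05, adjusted p = 0.0273 in limma) and 0.47 in eKD1 (SE 0.06, adjusted p = 0.102). All eKD libraries lay above both control libraries for this transporter. PDK1 was 70.7 and 76.1 FPKM in control, 75.1 and 81.3 FPKM with eKD1 and 137 and 123 FPKM in eKD2, a change of 0.81 in eKD2 (SE 0.08, adjusted p = 0.0305). HK2 was 75.6 and 80.5 FPKM in control, 75.6 and 73.8 FPKM with eKD1 and 125 and 117 FPKM in eKD2, a change of 0.63 (SE 0.07, adjusted p = 0.0305). For PDK1 the eKD1 libraries overlapped control, for HK2 they lay just below it, and for both genes the eKD2 libraries lay above it.

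The genes that fell in eKD2 are aldolases, GAPDH, PKM and LDHB. ALDOA was 8098 and 8286 FPKM in control hypoxia, 5995 and 6561 FPKM with eKD1 and 5343 and 5399 FPKM with eKD2. GAPDH was 12097 and 12130 FPKM in control, 9308 and 9430 FPKM with eKD1 and 8526 and 9136 FPKM in eKD2. LDHB was 2860 and 2783 FPKM in control, 2201 and 2375 FPKM with eKD1 and 2108 and 2113 FPKM in eKD2. For all of these, every eKD library was below both control libraries. ALDOC was 145 and 140 FPKM in control, 92.2 and 82.2 FPKM with eKD1 and 92.03 and 103 FPKM in eKD2, and PKM was 3030 and 2974 FPKM, 2634 and 2661 FPKM, and 2190 and 2313 FPKM.

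The sizes in eKD2 on the log2 scale were -0.61 for ALDOA (SE 0.03, adjusted p = 0.0221 in limma), -0.54 for ALDOC (SE 0.08, adjusted p = 0.0405) and -0.46 for GAPDH (SE 0.04, adjusted p = 0.0298). LDHB fell by 0.42 (SE 0.03, adjusted p = 0.0273) and PKM by 0.42 (SE 0.04, adjusted p = 0.0305). In eKD1 the same genes had changes of -0.39, -0.70, -0.37, -0.30 and -0.18 in that order, with adjusted p from 0.102 to 0.122. ALDOC in eKD2 was at 68.6% of its control hypoxia level and still 43.3-fold above its mean in control normoxia. LDHB in eKD2 was 0.955 times its mean in control normoxia. Both ratios to normoxia differ in guide as well as oxygen and depend on the scaling between libraries.

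Abundant genes as a whole were lower in both eKD groups. The 121 other genes with a mean of at least 1000 FPKM were at a median of 86.2% of control in eKD1 (13 of 121 above 0 on the log2 scale) and 78.2% in eKD2 (6 of 121 above 0). ALDOA in eKD2, at 65.6% of control, was below that median, and GAPDH (72.9%), LDHB (74.8%) and PKM (74.99%) were near it. After rescaling on those genes, ALDOA alone remained called lower (-0.26, adjusted p = 0.0178 in limma), and 10 genes were called higher, among them SLC2A1 (1.02), PDK1 (1.15), HK2 (0.97) and LDHA (0.33), where 30.4% of all tested genes were called higher and 1.54% lower. The eKD2 calls also ended with a replicate block, without a variance trend and without any one library, and all but SLC2A1 ended with no filter. In a fit of all 8 libraries together, all 8 eKD2 calls remained. In that fit SLC2A1 was called higher in eKD1, and ALDOC, ALDOA, GAPDH, LDHB and PKM lower, with adjusted p from 0.0119 to 0.0494, where 2.89% and 2.06% of all genes were called higher and lower.

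**Figure D5:**
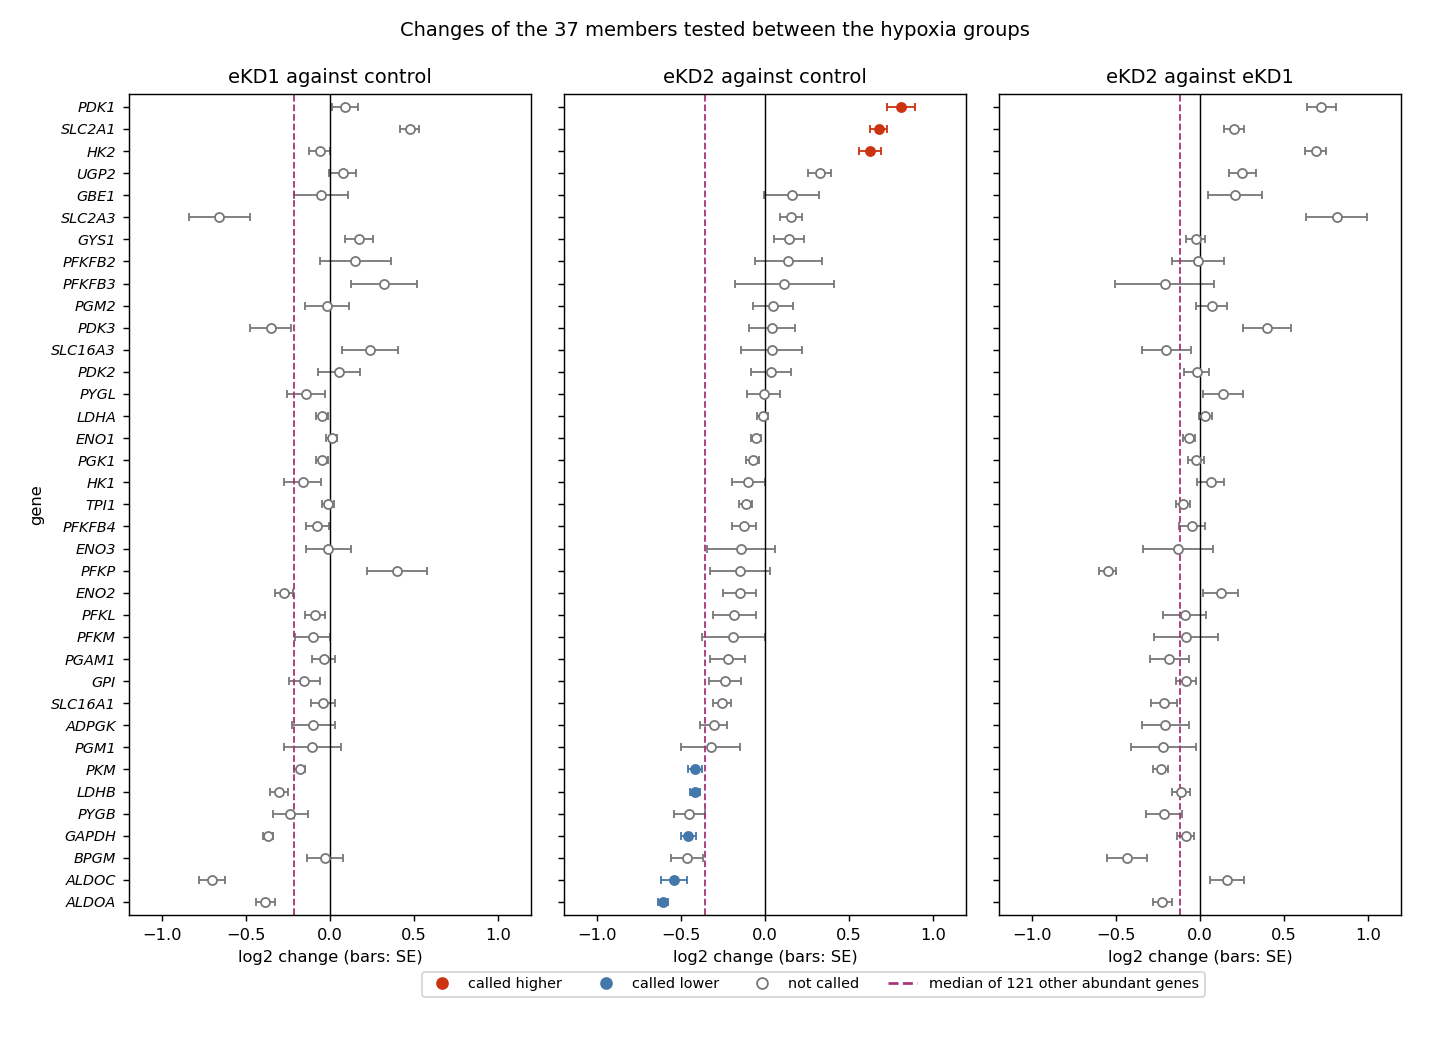
Log2 changes of the 37 tested genes in eKD1 against control, eKD2 against control and eKD2 against eKD1, all in hypoxia (points are limma estimates from 2 against 2 libraries, bars are SE, filled points are called). The dashed line is the median of 121 other abundant genes, -0.21, -0.36 and -0.12 in the 3 panels, near which GAPDH, LDHB and PKM lie in eKD2.

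The direct comparison of eKD2 with eKD1 called none of the 37 genes in limma, where 0.286% of all tested genes were called higher and 0.117% lower. Without adjustment, 9 genes had a p under 0.05, near the 23.6% of all tested genes. The largest differences were SLC2A3 (0.81, SE 0.18, adjusted p = 0.127), PDK1 (0.72, SE 0.09, adjusted p = 0.0779), HK2 (0.69, SE 0.06, adjusted p = 0.0642) and PFKP (-0.55, SE 0.05, adjusted p = 0.0662). SLC2A3 was 33.5 and 24.1 FPKM with eKD1 and 52.3 and 49.1 FPKM in eKD2, with control hypoxia between them at 44.7 and 46.1 FPKM. PFKP was 297 and 314 FPKM with eKD1 and 206 and 210 FPKM in eKD2. In the fit of all 8 libraries, SLC2A3, PDK1 and HK2 were called higher in eKD2 than in eKD1, and PKM and ALDOA lower, where 5.26% and 3.79% of all tested genes were called higher and lower.

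The isozyme mixture in the eKD groups was that of hypoxia, with some shares outside the range of the control libraries. LDHA was 72.0% and 71.0% of the LDH sum in eKD1 and 73.7% and 73.4% in eKD2, above both control hypoxia libraries at 67.8% and 67.7%. PDK1 was 62.5% and 65.9% of the PDK sum in eKD1, overlapping control, and 74.0% and 72.9% in eKD2, above it. SLC2A3 was 24.0% and 17.7% of its sum in eKD1 and 29.9% and 27.7% in eKD2, below control hypoxia at 36.4% and 37.2%. HK1 was 33.9% and 36.6% of its sum in eKD1, overlapping control, and 25.5% and 26.5% in eKD2, below it. These shares come from 2 libraries a group and were not tested.

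The partners of HIF-1 were also read at the RNA level. HIF1A was 104 and 116 FPKM in control normoxia and 33.3 and 39.0 FPKM in control hypoxia. The eKD1 libraries had 44.02 and 41.3 FPKM and the eKD2 libraries 62.1 and 58.5 FPKM. It fell by 1.58 on the log2 scale in hypoxia (SE 0.11, adjusted p = 0.00809 in limma) and rose by 0.73 in eKD2 (SE 0.10, adjusted p = 0.0408), while eKD1 differed from control by 0.24 (adjusted p = 0.307). ARNT rose by 0.86 in hypoxia (SE 0.11, adjusted p = 0.0143) and was not called in eKD1 (-0.24, adjusted p = 0.332) or eKD2 (-0.17, adjusted p = 0.397). HIF1A protein, which is controlled by degradation, is not read by RNA sequencing.

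Other genes of the pathway, a list of 72 further isozymes, glycogen regulators, pyruvate genes and gluconeogenesis genes, had a smaller median change in hypoxia. Both lists were chosen with earlier results of these data known, so the choice may contribute to this contrast, which was not tested. Of 38 that were tested, 11 rose and 3 fell in hypoxia, that is 28.95% and 7.89% beside 16.2% and 16% of all tested genes, with a median log2 change of 0.05. The largest rises with a mean of at least 5 FPKM were PCK2 (2.72), the mitochondrial PEP carboxykinase, GAA (1.27), the lysosomal enzyme that breaks down glycogen, and PPP1R3B (1.10), which brings protein phosphatase to glycogen. The falls included GSK3B (-0.995), a kinase that inhibits glycogen synthase, and GYG2 (-0.60), a glycogenin that primes glycogen. PCK2 was 2.85 and 4.19 FPKM in normoxia and 26.6 and 30.6 FPKM in control hypoxia. In eKD1 it was 9.71 and 8.72 FPKM, and in eKD2 80.3 and 80.3 FPKM. Its libraries lay apart in all 4 groups, and it was called higher in eKD2 than in control (1.46, SE 0.09, adjusted p = 0.0273 in limma). No other gene of the list was called between the hypoxia groups in the pairwise limma fits.

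Some levels carry limits from the annotation. Exons of 23 of the 38 genes overlap those of another gene in GENCODE version 44 on GRCh37, in 18 cases on the opposite strand. The library kit does not mark strand, so reads of overlapping genes cannot be told apart, and PDK1 (with PDK1-AS1) and PDK2 (with SAMD14) are among them. Processed copies were small beside LDHA (1.40% to 2.65% of its level) and GAPDH (62 copies, 0.0898% to 0.128%).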

How the data were processed

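RNA was measured in 8 SK-N-MC libraries, 2 per group, with groups read from the titles. Libraries were poly-A selected and unstranded, and the authors mapped their single-end reads to GRCh37 (hg19) with STAR. The deposited values are FPKM from Cuffnorm, in 1 table of 60332 genes. How Cuffnorm scaled the libraries against each other is not given in the sources used here. The study tested counts with a count model. FPKM are not counts, so log2(FPKM + 1) was tested with limma 3.58.1 in R 4.3.3 (lmFit, eBayes with a variance trend) on the 4 libraries of each comparison. This scale understates changes of low genes. A gene was tested if 2 or more of the 8 libraries had 1 FPKM or more (15372 genes), p-values were two-sided, and Benjamini-Hochberg adjustment covered all of them. Calls were made at an adjusted p under 0.05. SE is the limma standard error. No interval for a single FPKM value or detection floor was computed, since both need counts.

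The gene symbols and lists were chosen with earlier results of these data known, although no measured value enters the rule. All 38 genes are named, with LOXHD1, HIF1A, ARNT and, per comparison, up to 3 called rises and 3 called falls of the related list whose higher group had a mean of 5 FPKM or more. A gene that this rule names is not reported here. Isozyme shares are percentages of the FPKM sum of the family within a library. The list of abundant genes and the rescaling on it were added after seeing the data. The fit was also run on simulated data with independent noise per gene and no shift between libraries. These data differ from that setting, so no result here rests on the simulation. The alternatives were another pseudocount, other filters, other scalings, a shared fit, a replicate block, no variance trend and leaving out each library.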

Additional observations from a re-analysis of the deposited data

Results flagged for a closer look

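PCK2, a gene of the related list, differed between the eKD groups. Relative to control hypoxia its log2 change was -1.53 in eKD1 (SE 0.12, limma adjusted p = 0.102) and 1.46 in eKD2 (SE 0.09, adjusted p = 0.0273), opposite in direction. The difference between eKD2 and eKD1 was tested directly and was 2.99 on the log2 scale (SE 0.09, adjusted p = 0.0205), with both eKD2 libraries at 80.3 FPKM and the eKD1 libraries at 9.71 and 8.72 FPKM. Both changes use the same control hypoxia libraries. The cause of the difference was not tested.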

How the results depend on the processing

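Of 35 changes called among the 38 genes, 455 alternatives were computed, of which 273 kept direction and call, 180 kept direction and lost the call, and 2 reversed. The reversals were LDHB (-0.24) and PFKM (-0.22) in hypoxia under abundant-gene rescaling. The counts moved as follows. In hypoxia, genes called lower went from 0 to 1 with equal FPKM totals and with no variance trend (ENO3 under equal totals) and to 4 under abundant-gene rescaling (LDHB, ENO3, ADPGK and UGP2). In eKD1, the shared fit of all libraries called 1 higher and 5 lower. In eKD2, called genes numbered 1 higher and 0 lower with no filter, 0 and 0 with no variance trend, and 10 and 1 under abundant-gene rescaling. In eKD2 against eKD1, the shared fit called 3 higher and 2 lower, and abundant-gene rescaling called 1 higher. Leaving out any library gave 0 to 0 genes called in every comparison, with a lone library assumed to vary like the other group. With the replicate block, eKD2 had 0 called higher and 0 lower, and hypoxia kept 26 of its 27 calls. Across genes, same-numbered libraries did not deviate together (correlation of same-numbered deviations -0.050 to 0.037). This cannot show whether they were cultured or processed together. The share of the FPKM total in control normoxia was 1.701% of tested genes only (1.69% of all), and the difference of the SLC2A3 share between hypoxia and normoxia was 25.5 percentage points with all paralogs (22.9 without). The alternative without mitochondrial genes was not run. No gene was removed for being mitochondrial from the library totals, the rescalings or the genes tested. Over all genes tested, higher calls made up 50.3% in hypoxia and 60.3% in eKD2, against 28.4% and 77.5% with equal FPKM totals, 10.5% and 95.2% under abundant-gene rescaling, and 47.4% in eKD2 with median-of-ratios rescaling. In eKD2 against eKD1 they made up 71.0%, and 82.6% under abundant-gene rescaling. All-gene counts called in hypoxia were 4946, against 7745 under abundant-gene rescaling, 3024 with no filter and 2570 with the replicate block. In eKD1 they were 10, against 761 in the shared fit, 206 with no filter and 0 with the replicate block. In eKD2 they were 1477, against 4914 under abundant-gene rescaling, 2601 in the shared fit, 853 with no filter, 28 with no variance trend and 0 with the replicate block. In eKD2 against eKD1 they were 62, against 1391 in the shared fit.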
